A study of Mus musculus with 7 samples.

Results

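The genes described here were 40 mouse genes of the MYC transcription factor network and of ribosome production, chosen by name from the 55423 features of a read count table of skin tumours. They were measured in bulk RNA of tumours from 2 mouse models of cutaneous squamous cell carcinoma (cSCC). Ivl:BRAFV600E mice carried 1 BRAFV600E allele and a tamoxifen-inducible Cre recombinase under the involucrin promoter, which acts in the committed IVL+ keratinocyte population. Ivl:BRAFV600E-SOX2LSL mice carried the same alleles and in addition 1 Rosa26 allele that expresses SOX2 and eGFP once its stop cassette is removed, so BRAFV600E and Cre were shared by both groups. The sample labels listed 4 and 3 tumours and gave an age of 7 to 10 weeks for the mice of both groups. The paper reports induction at a similar age and tumours only weeks later, so this is probably not the age at collection. From the mouse names 3 tumours of each genotype could be assigned to a group and were used. Both Ivl:BRAFV600E females also carried a Rosa26 tdRFP reporter according to the study's records. Each tumour came from its own mouse and was collected at clinical endpoint, and every SOX2-expressing tumour was collected sooner after induction than every Ivl:BRAFV600E tumour, so time since induction and genotype cannot be told apart. Values per tumour are listed in a fixed order throughout, namely the first female, the second female and the male for Ivl:BRAFV600E, and the first male, the second male and the female for Ivl:BRAFV600E-SOX2LSL.

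MYC is a transcription factor that binds DNA as a heterodimer with MAX, most readily at the E-box sequence CACGTG. MYCN and MYCL are its paralogues, while MXD1 and MXI1 compete for MAX and repress the same kind of target. Ribosome production is among the best known outputs of MYC: RNA polymerase I makes the ribosomal RNA precursor in the nucleolus, small nucleolar ribonucleoproteins (snoRNPs) guide its chemical modification, processing factors cut and fold it into the small and large subunits, and initiation factors then load mRNAs onto the finished ribosomes. In the epidermis MYC is known for driving stem cells out of quiescence and for its high activity in squamous carcinomas.

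The tumours were sequenced to 23565432 to 31152826 counts assigned to genes. Of all features, 24433 reached 5 reads in some tumour and were tested, the 40 members among them. The weakest member, Mycn, still had at least 9 reads in every tumour. Sox2, the gene added in the second model, checked the labels: it stood at 0.716, 0.508 and 0.238 counts per 1 M (CPM, after TMM scaling of the libraries) in the Ivl:BRAFV600E tumours and at 182, 155 and 158 CPM in the Ivl:BRAFV600E-SOX2LSL tumours. The tumours were also different mixtures of cells. Markers of keratinocytes, 16 of 16 of which were tested, summed to between 124399 and 206375 CPM in the Ivl:BRAFV600E tumours and to between 28759 and 91719 CPM in the others, and none of them was at or below 1 CPM throughout. The sum was carried by abundant keratins such as Krt1 and Krt10; 10 of 16 markers were below 0 and 6 above, 5 were lower and 4 higher without overlap (Itga6, Itgb4, Krt15 and Dsg3), and 0 passed the edgeR test, with 6 lower and 4 higher at an unadjusted p below 0.05; DESeq2 called 5 lower and 4 higher, and limma voom 1 and 3. Skeletal muscle markers, of which 19 of 20 were tested, summed to between 9.38 and 24.5 CPM against 889 to 3769 CPM, and 16 of them rose in the edgeR quasi-likelihood test. Immune markers summed to between 439 and 1397 CPM against 986 to 2237 CPM, and fibroblast markers to between 839 and 5386 CPM against 4150 to 8895 CPM. The part of these mixtures in the results below was not tested. The members were also recomputed without the muscle markers and without the keratin genes. This takes out those genes but not the cells, so it is no test of the mixtures. In bulk tumour RNA, fewer cells of a type and less RNA per cell cannot be told apart.

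The genes were mostly lower in the Ivl:BRAFV600E-SOX2LSL tumours. A log2 fold change below 0 was found for 38 of 40 members, the exceptions being Mycn and Utp20, with a median of -0.38 against 0.04 over all genes tested. Of all genes tested 47.2% were below 0, and of the 8651 genes with a mean of at least 10 CPM 52.4% were. In 26 of 40 members every Ivl:BRAFV600E-SOX2LSL tumour was lower than every Ivl:BRAFV600E tumour, and in 0 of 40 was the reverse seen. Genes without overlap in the lower direction made up 16.0% of all genes tested and 25.9% of those with at least 10 CPM, and in the higher direction 18.2% and 21.8%. By the edgeR quasi-likelihood test with Benjamini-Hochberg adjustment over all 24433 genes, only Mycl and Eif4e passed an adjusted p of 0.05, both of them lower, where 3.90% of all genes were called, 1.51% lower and 2.39% higher. An unadjusted p below 0.05 was reached by 21 members, all lower, against 11.2% of all genes in this direction. DESeq2 called 12 members lower, against 7.76% of its 20046 genes with an adjusted p. The 40 members share the same libraries and the same scaling, so these counts are not 40 separate measurements. The members were also chosen with earlier results of these data known, so the shares over all genes are no independent comparison.

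This difference was relative to the other genes of the same library, not in the share of all counts. Before TMM scaling, the 40 members took 0.410%, 0.374% and 0.324% of the counts in the Ivl:BRAFV600E tumours and 0.383%, 0.341% and 0.353% in the Ivl:BRAFV600E-SOX2LSL tumours, so that the groups overlapped. TMM scaling factors were 0.94, 0.82 and 0.89 in the first group and 1.26, 1.07 and 1.07 in the second. Keratin genes took 10.6%, 15.5% and 14.2% of the counts in the first group and 2.67%, 8.36% and 7.06% in the second, with no overlap. After scaling, the members summed to 4359, 4536 and 3623 CPM against 3053, 3183 and 3295 CPM. Without any scaling factors, an alternative added after the data were seen, the median of the members was -0.03, 21 of 40 were below 0, 17 having turned above it, and the median of all genes was 0.39. The distance between the members' median and that of all genes was -0.43 with TMM and -0.43 without scaling factors. Scaling factors shift all genes nearly alike, so this distance could hardly move with them and is no test of the scaling. Over all 18 settings it lay between -0.52 and -0.35, and both ends came from fits with 1 tumour left out. All directions given below are therefore relative to the bulk of the genes.

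**Figure D1:**
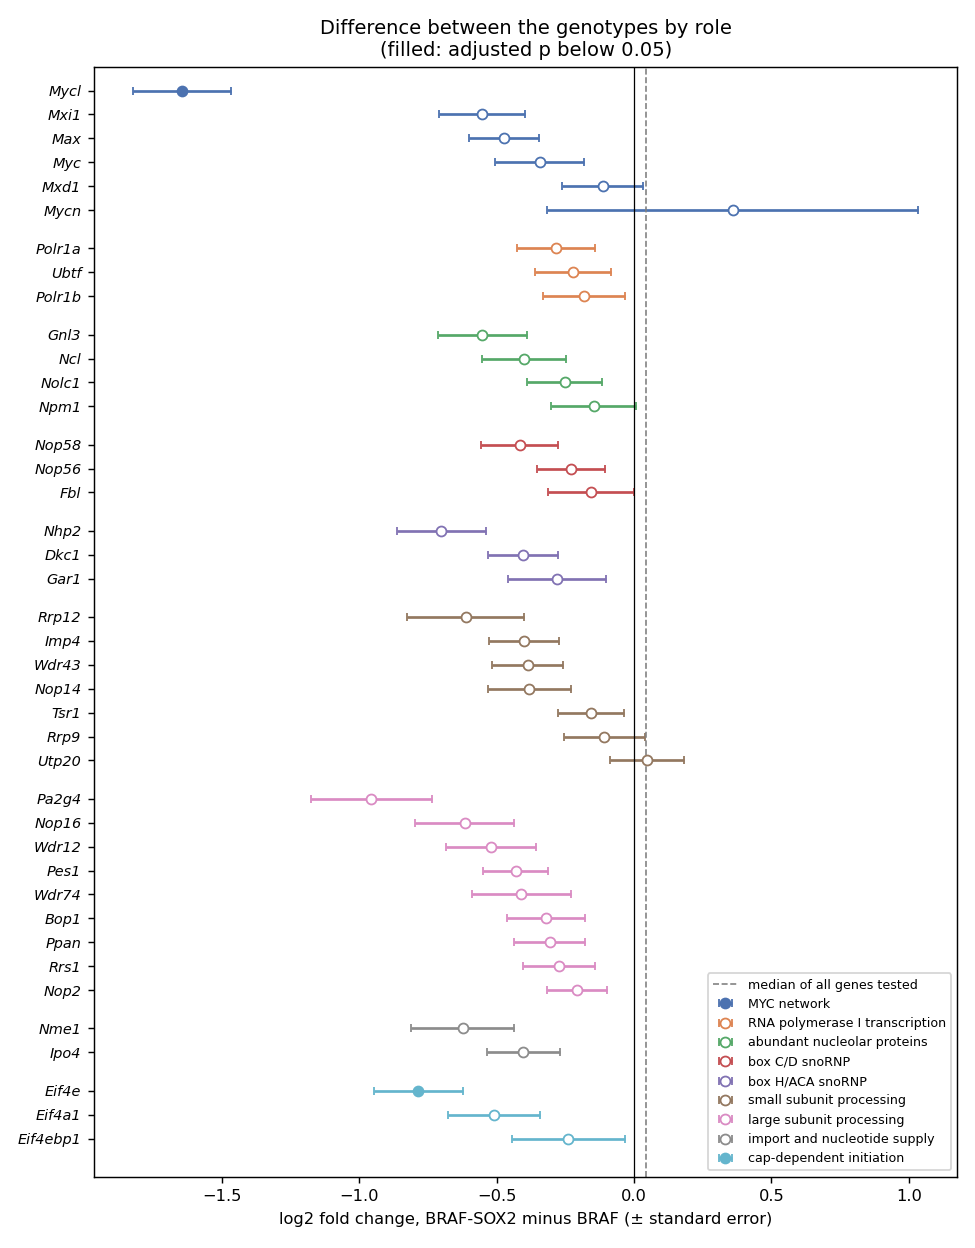
Log2 fold change (Ivl:BRAFV600E-SOX2LSL minus Ivl:BRAFV600E, n = 3 tumours each) with its standard error for the 40 members, grouped by role. Filled points passed an adjusted p of 0.05 (Mycl and Eif4e), 38 of 40 points lie below 0, and the dashed line is the median of all genes tested at 0.04.

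Mycl, the MYC paralogue first described in small cell lung cancer, gave the largest difference of all members. It lies on chr4:122995652-123002485 (GRCm38, plus strand) and codes for a protein. Its level was 53.3, 72.2 and 59.0 CPM in the Ivl:BRAFV600E tumours and 16.4, 20.05 and 22.5 CPM in the Ivl:BRAFV600E-SOX2LSL tumours. The lowest tumour of the first group was thus well above the highest of the second. The means were 61.5 ± 9.69 and 19.7 ± 3.06 CPM (SD, n = 3), and the gene fell by 1.65 on the log2 scale (SE 0.18, adjusted p = 0.0110, edgeR quasi-likelihood test), a level 68.0% lower. Within females the log2 CPM difference was -1.46 and within males -1.70. The call was kept in 15 of 17 alternatives, and was lost without the first female Ivl:BRAFV600E tumour (adjusted p = 0.0726) and without the second (adjusted p = 0.0521), with log2 fold changes of -1.74 and -1.52.

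Myc itself did not pass the test. It was at 97.6, 83.0 and 67.7 CPM in the Ivl:BRAFV600E tumours and at 68.8, 58.9 and 67.9 CPM in the others. Both females of the first group were above all SOX2-expressing tumours, whereas the male lay among them. The log2 fold change was -0.34 (SE 0.16, edgeR adjusted p = 0.232), and it was 0.01 without scaling factors. With 1 tumour left out it lay between -0.47 (without the male Ivl:BRAFV600E tumour) and -0.21 (without the first female). Within females the log2 CPM difference was -0.41 and within males -0.09. Mycn, the paralogue known from neuroblastoma, was scarce, with 0.716, 0.416 and 1.95 CPM against 0.839, 2.30 and 0.795 CPM. One male in each group was the highest and the groups overlapped (log2 fold change 0.36, SE 0.67, edgeR adjusted p = 0.773). Per kb of exon, the mean level in the Ivl:BRAFV600E tumours was 30.5 CPM for Myc, 15.2 CPM for Mycl and 0.312 CPM for Mycn, so Myc was the most abundant of the paralogues in that group.

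Max, the shared partner, was at 109, 100 and 91.3 CPM in the Ivl:BRAFV600E tumours and at 65.8, 72.2 and 78.3 CPM in the Ivl:BRAFV600E-SOX2LSL tumours. The groups did not overlap, yet the difference of -0.47 on the log2 scale (SE 0.13) missed the threshold (edgeR adjusted p = 0.0807). Mxi1, a repressor that binds MAX, showed 68.7, 71.6 and 57.1 CPM against 38.4, 51.5 and 44.6 CPM. Its groups were also apart, with a log2 fold change of -0.55 (SE 0.16, edgeR adjusted p = 0.0893). Mxd1, a repressor linked to keratinocyte differentiation, stood at 296, 298 and 224 CPM against 253, 254 and 249.1 CPM. The male of the first group was below all other tumours, and the log2 fold change of -0.11 (SE 0.15, edgeR adjusted p = 0.663) became 0.24 without scaling factors. With 1 tumour left out it lay between -0.24 (without that male) and -0.05 (without the second female of the first group).

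**Figure D2:**
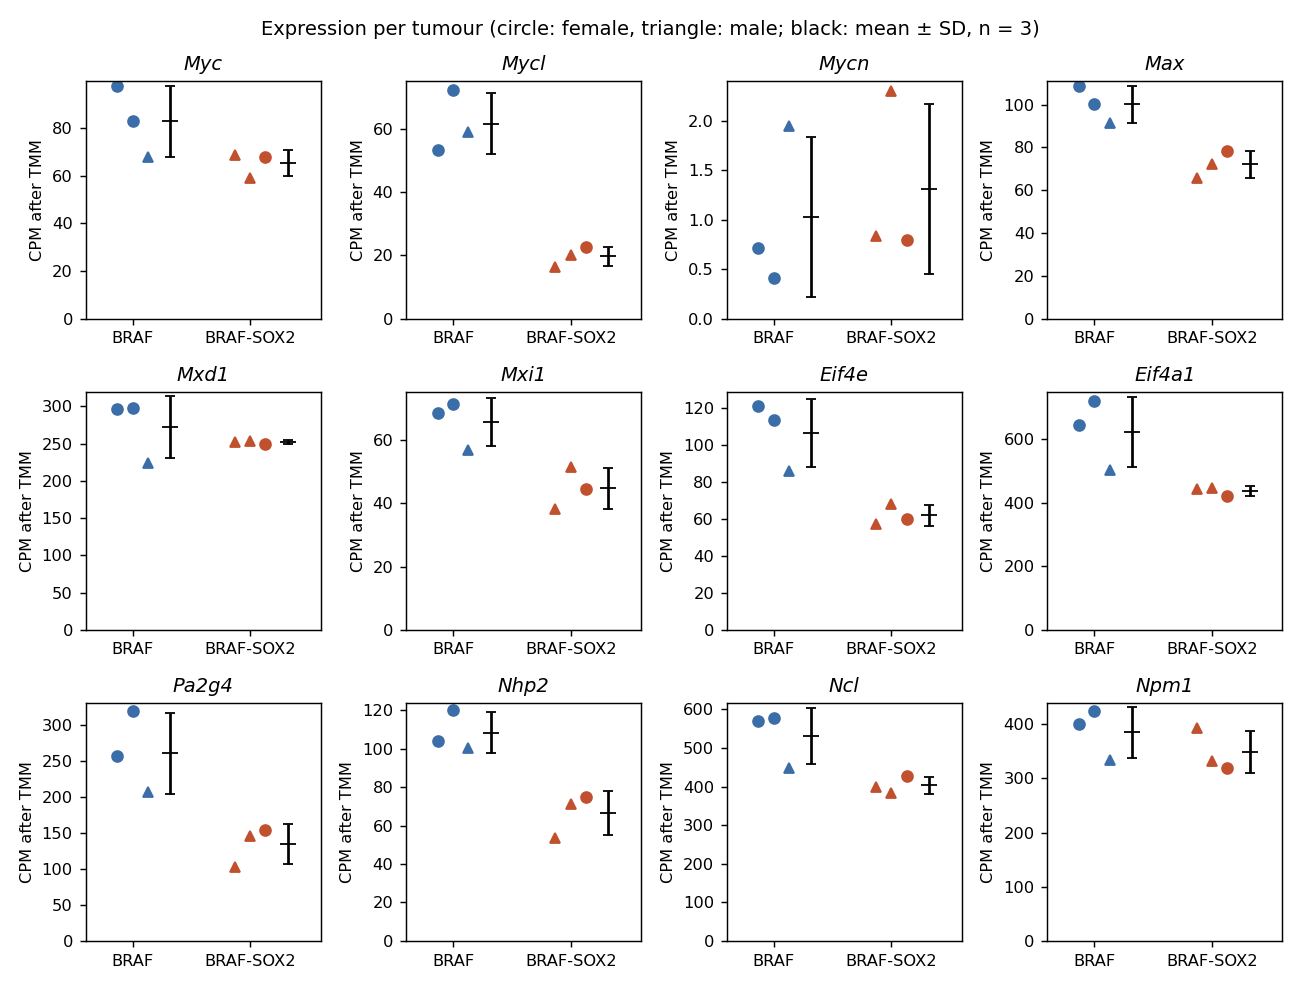
Expression (CPM after TMM, linear axes from 0) of 12 members in each tumour, with circles for females, triangles for males, and the mean with its SD (n = 3) in black. Mycl, Eif4e, Pa2g4, Nhp2, Max, Mxi1, Eif4a1 and Ncl show no overlap between genotypes, while Myc, Mycn, Mxd1 and Npm1 overlap.

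The E-box CACGTG was searched in the windows from 250 bases before to 50 bases after the RefSeq start sites (GRCm38.p6). A window was given for 33 of 40 members, 44 windows in all, and none was used for Myc, Npm1, Fbl, Bop1, Rrs1, Rrp12 and Eif4ebp1. CACGTG reads the same on both strands. It was found in 11 of 33 members (33.3%), against 8.09% of all genes with a window, 10.4% of the genes tested and 12.2% of those with at least 10 CPM. Counted by window, 27.3% of the members' windows and 7.15% of all windows held it. The related motif CACGCG, searched as CACGCG and CGCGTG so that both strands were covered, was in 8 of 33 members (24.2%), against 10.5% of all genes, 16.8% of the genes tested and 21.02% of those with at least 10 CPM. Members with CACGTG had a median log2 fold change of -0.40 (n = 11) and the other 22 members with a window one of -0.39. A match is a run of letters and no measurement of binding.

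There were 13 CACGTG matches, which are shown because they are the sequence that MYC and MAX are known to bind. The 20 bases around each are given 5′ to 3′ in the direction of the gene, with the match in capitals and the coordinates of the match (sequences from RefSeq, GRCm38.p6).
Eif4a1, chr11:69672607-69672612, minus strand: gcctccgCACGTGtaaaggt
Eif4e, chr3:138527040-138527045, plus strand: cagcgacCACGTGatcactt
Eif4e, chr3:138527204-138527209, plus strand: cgtccgtCACGTGggcagga
Imp4, chr1:34439708-34439713, plus strand: cttagacCACGTGacatccc
Ipo4, chr14:55635665-55635670, minus strand: gagtctcCACGTGccgatcc
Max, chr12:76962246-76962251, minus strand: gcccggtCACGTGttagggg
Nme1, chr11:93968049-93968054, minus strand: gatacgcCACGTGggctcgc
Nme1, chr11:93968285-93968290, minus strand: ggggaacCACGTGaggccgg
Nop2, chr6:125131823-125131828, plus strand: cctggatCACGTGtgttccg
Pes1, chr11:3963977-3963982, plus strand: ggcagggCACGTGcgggagg
Tsr1, chr11:74898104-74898109, plus strand: tggtgcaCACGTGgactgca
Utp20, chr10:88826772-88826777, minus strand: ctaactaCACGTGaggaaaa
Wdr43, chr17:71616232-71616237, plus strand: gggcgaaCACGTGgctgccg

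Positions are those of the first base of a match. In Max the match began 3 bases before the start site and spanned it, and in Pes1 it began at the base numbered 3 after the start. Of the 13 matches, 8 began before the start, that of Max included, and 10 began within 70 bases of it. Eif4e, one of the called members, had 2 matches, at 228 and 64 bases before one of its 2 start sites. Nme1 had 1 match in each of its windows. Utp20, with a match 38 bases after the start, was one of the members whose log2 fold change was not below 0. Mycl, the other called member, had no CACGTG in its window and 1 CACGCG, 20 bases before its start.

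**Figure D3:**
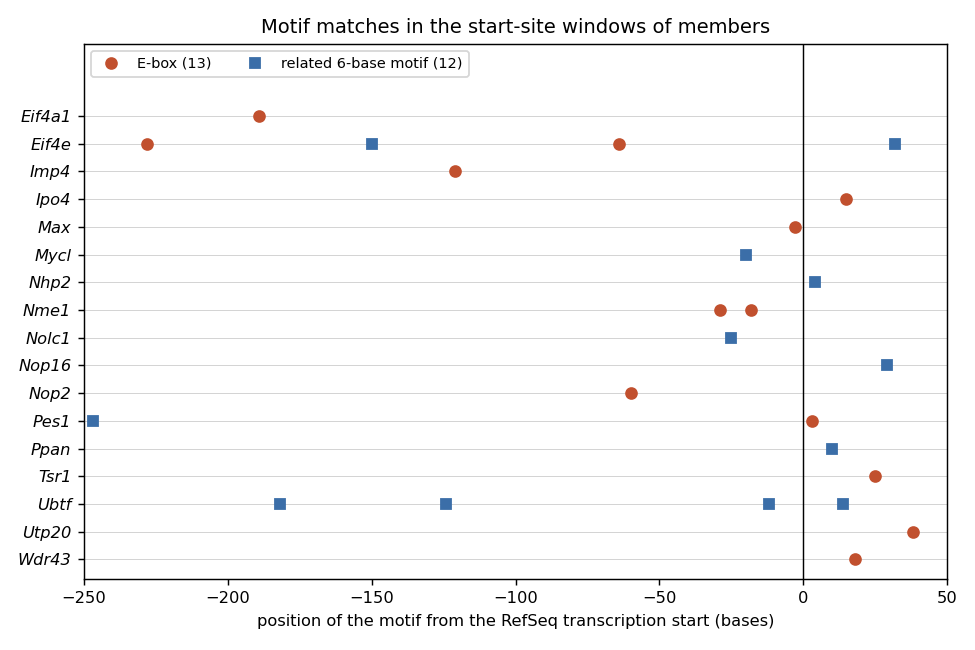
Position of the E-box (13 matches) and of the related motif (12 matches) in the start-site windows of members, as the first base of each match in bases from the RefSeq transcription start. Of the 13 E-box matches, 10 begin within 70 bases of the start, and Ubtf holds 4 of the related motif and no E-box.

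For Nop2 and Eif4a1 the whole 250 bases before the start could be shown, since these were the windows with a CACGTG before the start that held no base of an exon in GENCODE M21. Both are given in the direction of the gene with the match in capitals.
Nop2, chr6:125131633-125131882, plus strand: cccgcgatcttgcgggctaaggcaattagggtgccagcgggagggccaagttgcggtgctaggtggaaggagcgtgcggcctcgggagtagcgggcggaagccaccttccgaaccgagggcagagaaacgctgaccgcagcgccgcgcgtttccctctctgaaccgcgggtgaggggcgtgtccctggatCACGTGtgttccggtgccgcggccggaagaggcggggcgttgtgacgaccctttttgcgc
Eif4a1, chr11:69672424-69672673, minus strand: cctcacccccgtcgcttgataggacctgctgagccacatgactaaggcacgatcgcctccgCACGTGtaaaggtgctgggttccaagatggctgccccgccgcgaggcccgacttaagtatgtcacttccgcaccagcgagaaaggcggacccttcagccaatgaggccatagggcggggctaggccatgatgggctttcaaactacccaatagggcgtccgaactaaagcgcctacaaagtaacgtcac

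The Nop2 stretch held 67.6% G and C and 30 CG pairs, and the Eif4a1 stretch 58.8% and 18.

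Cap-dependent initiation held the other called member. Eif4e (chr3:138526179-138559696, plus strand, protein coding) encodes the protein that binds the 5′ cap of mRNAs, and its level is known to limit initiation. It was at 121, 114 and 86.0 CPM in the Ivl:BRAFV600E tumours and at 57.6, 68.4 and 60.1 CPM in the Ivl:BRAFV600E-SOX2LSL tumours. The male of the first group was its lowest and still stood above all of the second. The gene fell by 0.78 on the log2 scale (SE 0.16, adjusted p = 0.0472, edgeR quasi-likelihood test), a level 42.0% lower. This call was close to the threshold: it was kept in 10 of 17 alternatives and, with a tumour left out, only without the first male Ivl:BRAFV600E-SOX2LSL tumour (adjusted p = 0.0477). Without any other tumour the edgeR adjusted p was between 0.0610 and 0.177. With sex as a covariate the adjusted p was 0.129. Over all 17 alternatives the log2 fold change stayed between -0.92 and -0.44.

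Eif4a1, the RNA helicase that works beside EIF4E, was at 643, 719 and 503 CPM against 444, 447 and 420 CPM. Its groups did not overlap, and the log2 fold change of -0.51 (SE 0.17) did not pass (edgeR adjusted p = 0.121). Eif4ebp1, whose protein holds EIF4E inactive, was at 54.7, 78.8 and 45.2 CPM against 49.4, 49.2 and 52.9 CPM. The SOX2-expressing tumours lay inside the range of the others, with a log2 fold change of -0.24 (edgeR adjusted p = 0.497).

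Large subunit processing was the largest role and its members were all separated, as were both import and nucleotide supply genes: 9 of 9 had no overlap and a lower level in the Ivl:BRAFV600E-SOX2LSL tumours, with a median log2 fold change of -0.41, though 0 of 9 passed the edgeR test after adjustment and 5 had an unadjusted p below 0.05. DESeq2 called 4 of them lower (Pa2g4, Pes1, Wdr12 and Nop16). Pa2g4 encodes a growth-related RNA-binding protein of the nucleolus and of 60S particles. It stood at 256, 319 and 206 CPM against 103, 146 and 154 CPM, and the groups were far apart. Its log2 fold change, the largest in size after that of Mycl, was -0.96 (SE 0.22, edgeR adjusted p = 0.0584), and it passed the threshold in 4 of 17 alternatives. Pes1, Bop1 and Wdr12 form the PeBoW complex, which is needed for the maturation of the large subunit RNAs. Pes1 showed 75.8, 84.1 and 70.2 CPM against 55.7, 56.1 and 58.9 CPM (log2 fold change -0.43, SE 0.12, edgeR adjusted p = 0.0831). Wdr12 showed 31.7, 28.6 and 24.6 CPM against 16.8, 20.5 and 21.9 CPM (log2 fold change -0.52, SE 0.16, edgeR adjusted p = 0.111). Bop1 was the steadiest of the complex in the first group, at 65.4, 66.1 and 64.2 CPM against 43.2, 54.8 and 58.8 CPM, with a log2 fold change of -0.32.

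Nop16, a nucleolar protein known as a MYC target, was at 27.3, 26.5 and 18.9 CPM against 14.5, 15.9 and 16.9 CPM (log2 fold change -0.62, SE 0.18, edgeR adjusted p = 0.0960). The male of the first group was nearest to the second group. The remaining large subunit factors, Wdr74, Ppan, Rrs1 and the RNA methyltransferase gene Nop2, had log2 fold changes of -0.41, -0.31, -0.27 and -0.21. Their gaps were narrow: the lowest Ivl:BRAFV600E tumour had 53.6 CPM of Rrs1 and the highest Ivl:BRAFV600E-SOX2LSL tumour 51.6 CPM.

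Small subunit processing was more mixed. Among 7 members 4 had no overlap (Nop14, Imp4, Wdr43 and Rrp12), 6 were below 0 and the median was -0.38; 0 of 7 passed the edgeR test after adjustment or the DESeq2 test, and 4 had an unadjusted edgeR p below 0.05. Imp4, a component of the U3 particle that makes the first cuts, was at 50.6, 49.8 and 41.1 CPM against 37.0, 35.0 and 35.2 CPM (log2 fold change -0.40, SE 0.13, edgeR adjusted p = 0.114). Rrp12, needed for export of the subunits, had an uneven second group. It was at 73.3, 74.4 and 72.7 CPM in the Ivl:BRAFV600E tumours and at 33.6, 49.1 and 61.5 CPM in the others, with a log2 fold change of -0.61 (edgeR adjusted p = 0.134). The first male of that group was far below the female. Utp20, a scaffold of the early particle, was at 94.9, 77.7 and 77.7 CPM against 82.4, 81.8 and 94.5 CPM and showed no separation (log2 fold change 0.05). Rrp9, a U3 protein, and Tsr1 overlapped between the groups, with log2 fold changes of -0.11 and -0.16.

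The snoRNP proteins differed between members. Nhp2, a core protein of the H/ACA particles that guide pseudouridylation, was at 104, 120 and 100 CPM in the Ivl:BRAFV600E tumours and at 53.5, 71.3 and 74.8 CPM in the others. The groups were clearly apart (log2 fold change -0.70, SE 0.16), and the adjusted p was 0.0593 in the edgeR test and passed in 5 of 17 alternatives. Dkc1, the pseudouridine synthase of the same particles, was at 69.4, 62.5 and 55.2 CPM against 45.0, 49.4 and 47.0 CPM (log2 fold change -0.40, SE 0.13, edgeR adjusted p = 0.112). Gar1, the third H/ACA protein measured, was lower in abundance, at 9.99, 11.5 and 10.7 CPM against 8.23, 7.90 and 10.3 CPM, and overlapped. Of the box C/D proteins, which guide ribose methylation, Nop58 had no overlap (log2 fold change -0.42, edgeR adjusted p = 0.128), while Nop56 (-0.23) and the methyltransferase gene Fbl (-0.16) overlapped.

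The abundant nucleolar proteins included the member with the highest mean level per kb of exon. Npm1, a chaperone that organises the nucleolus, ranked first by CPM per kb of exon, with 145 in the Ivl:BRAFV600E tumours and 131 in the others. Eif4a1 was close to Npm1 in the Ivl:BRAFV600E tumours, with 143, and by mean CPM alone Eif4a1 and Ncl were above it. The Npm1 levels of 400, 424 and 333 CPM against 393, 332 and 320 CPM overlapped, with a log2 fold change of -0.15. Ncl, which binds nascent ribosomal RNA, was at 570, 578 and 448 CPM against 398, 383 and 427 CPM, with no overlap and a log2 fold change of -0.40 (edgeR adjusted p = 0.160). Gnl3, or nucleostemin, a nucleolar GTPase of proliferating cells, was at 80.1, 78.4 and 63.2 CPM against 42.0, 52.8 and 56.5 CPM (log2 fold change -0.55, SE 0.16, edgeR adjusted p = 0.0961). Nolc1 overlapped (log2 fold change -0.25).

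RNA polymerase I genes showed the smallest median by role, -0.22. Its 2 largest subunits, Polr1a and Polr1b, overlapped between groups (log2 fold changes -0.28 and -0.18). Ubtf, the factor that keeps ribosomal DNA open, was at 130, 134 and 134 CPM against 94.6, 124 and 122 CPM and did not overlap (log2 fold change -0.22, edgeR adjusted p = 0.353). Only the first male of the second group was far from the others. Of the remaining members, Nme1, a nucleoside diphosphate kinase, was at 36.01, 33.4 and 25.7 CPM against 16.9, 21.9 and 23.0 CPM (log2 fold change -0.62, SE 0.19, edgeR adjusted p = 0.101), and Ipo4, an importin, had a log2 fold change of -0.40 (edgeR adjusted p = 0.122). Some counts may be shared with overlapping genes, since the use of strand in counting was not given in the sources used here. Exons of 22 members overlapped those of another annotated gene, with the largest shares in Ipo4 (55.3% of exon bases), Tsr1 (32.3%) and Nme1 (12.5%). Npm1, Eif4e and ribosomal protein genes also have processed pseudogenes, with which reads can be shared.

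Across the members the tumours followed a common order. The highest value was in the first female Ivl:BRAFV600E tumour for 17 members, in the second for 19, in the male for 3 and in the second male Ivl:BRAFV600E-SOX2LSL tumour for 1. The lowest value was in the first male Ivl:BRAFV600E-SOX2LSL tumour for 24 members. This tumour also had the smallest keratin share (2.67%) and the largest TMM factor (1.26); their part in this order was not tested. After centring each gene on its mean, the median log2 CPM of the members was 0.24, 0.24 and 0.06 in the Ivl:BRAFV600E tumours and -0.27, -0.18 and -0.11 in the others. The male Ivl:BRAFV600E tumour thus lay between both females and the second group. Sex was unevenly spread, and within it the direction was mostly the same: 38 of 40 members were lower in the SOX2-expressing tumour among females (2 against 1, median difference -0.38) and 35 of 40 among males (1 against 2, median -0.28). In these comparisons 1 side was a single tumour and no test was made. The tdRFP reporter was recorded for both Ivl:BRAFV600E females, so in that group sex and reporter cannot be told apart. Among the 39 members above 10 CPM in the first group, the coefficient of variation had a median of 11.4% in the Ivl:BRAFV600E tumours and 8.69% in the others, and the median SE of the log2 fold change was 0.15.

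**Figure D4:**
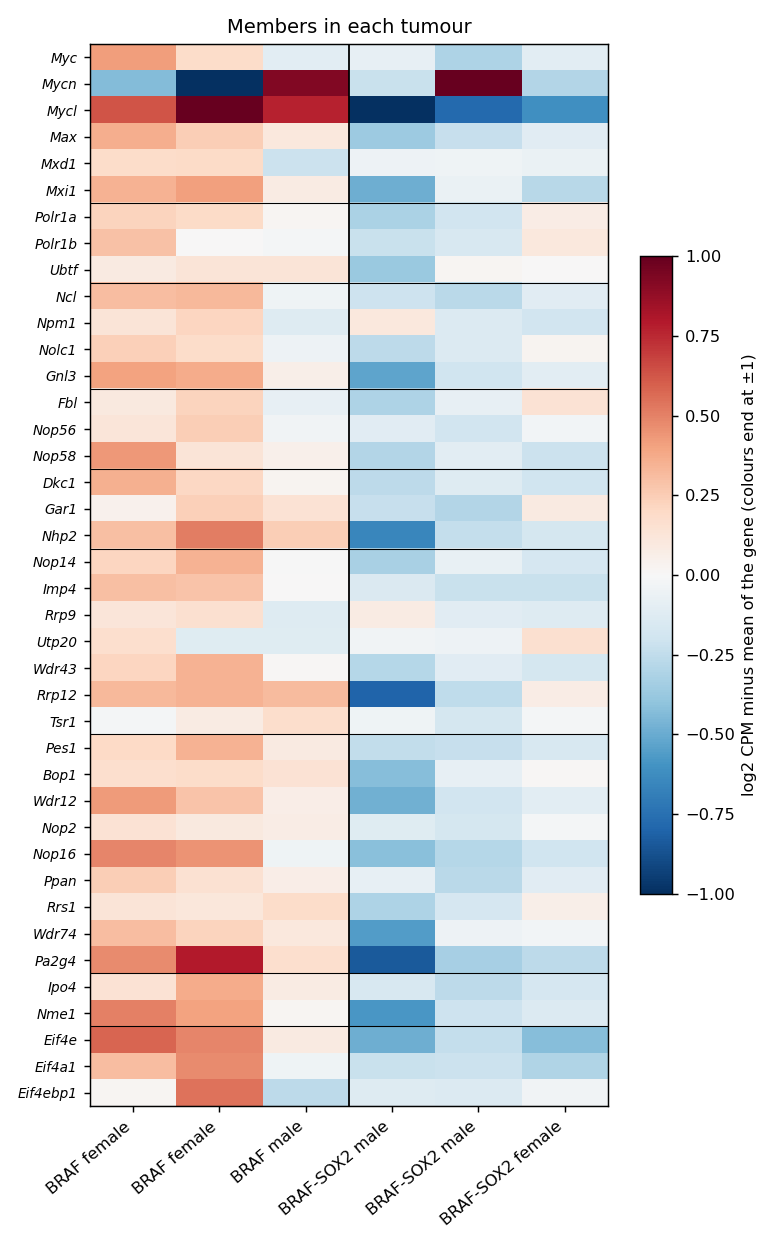
Log2 CPM of each member minus its mean over the 6 tumours (colours end at 1 and -1), rows by role and columns by tumour. The females of Ivl:BRAFV600E (medians 0.24 and 0.24) are the reddest columns and the first male of Ivl:BRAFV600E-SOX2LSL (median -0.27) is the bluest.

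Genes of the same pathways that were not members were compared through 10 further lists. Cytosolic ribosomal proteins, the structural parts of the ribosome, were the most uniform: 79 of 79 were below 0, 74 had no overlap and the median was -0.51. None passed after adjustment in the edgeR test, while 67 had an unadjusted p below 0.05, and DESeq2 called 32 lower. Their summed level was 27860, 35665 and 26515 CPM against 18544, 21980 and 22899 CPM. Without scaling factors 75 of 79 were still below 0, with a median of -0.16. Other translation initiation genes had a median of -0.38, with 26 of 34 below 0 and 19 without overlap in the lower direction. Here 0 passed in the edgeR test, 20 had an unadjusted p below 0.05, all lower, and DESeq2 called 10 lower. Without scaling factors the median of these initiation genes was -0.04, with 20 of 34 below 0.

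Processing factors outside the members had medians nearer to 0 than the members. Other small subunit genes were below 0 in 37 of 42 cases (median -0.27) and lower without overlap in 21. Other large subunit genes were below 0 in 40 of 45 cases (median -0.26), lower without overlap in 22 and higher in 1 (Nvl). None of either list passed in the edgeR test, with 12 and 15 at an unadjusted p below 0.05, all lower, and DESeq2 called 3 and 5 lower. Without scaling factors both medians were above 0 (0.08 and 0.09). Host genes of snoRNAs had a median of -0.29 over the 10 of 12 tested, which became 0.05 without scaling factors. Snhg17 was called lower, at 17.5, 17.8 and 14.8 CPM against 9.43, 9.46 and 9.82 CPM (log2 fold change -0.80, SE 0.15, edgeR adjusted p = 0.0388).

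Single genes of the polymerases stood out from their lists. Other RNA polymerase I genes had a median of -0.17 (0.19 without scaling factors), with 7 of 17 lower and 3 higher without overlap. With 1 tumour left out this median lay between -0.21 and -0.09, the latter without the female Ivl:BRAFV600E-SOX2LSL tumour. DESeq2 called 3 of these genes lower and 1 higher. Taf1d, a subunit of the selectivity factor SL1 and itself a host of snoRNAs, was the 1 called by edgeR, at 292, 402 and 265 CPM against 90.8, 154 and 129 CPM (log2 fold change -1.36, SE 0.24, edgeR adjusted p = 0.0349). RNA polymerase III genes had a median of 0.05 (0.41 without scaling factors), with 6 of 19 below 0, and DESeq2 called 1 lower and 2 higher. Polr3g, the subunit isoform typical of stem and tumour cells, was the 1 called by edgeR, at 139, 179 and 160 CPM against 28.1, 66.0 and 66.3 CPM (log2 fold change -1.57, SE 0.32, edgeR adjusted p = 0.0467).

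Known MYC targets outside ribosome production were more mixed. Of the metabolic and other targets 21 of 28 were below 0, with a median of -0.12 (0.22 without scaling factors). With 1 tumour left out this median lay between -0.19 (without the male Ivl:BRAFV600E tumour) and -0.06. The latter was without the second female Ivl:BRAFV600E tumour, where 16 of 28 were below 0. Without overlap 6 were lower and 6 higher (21.4% each), near the shares over all genes tested (16.0% lower and 18.2% higher). At an unadjusted edgeR p below 0.05, 7 were lower and 3 higher. The edgeR test called 2 higher and 0 lower, and DESeq2 called 2 higher and 2 lower. Odc1, the rate-limiting enzyme of polyamine synthesis and a classical MYC target, was at 126, 113 and 88.3 CPM in the Ivl:BRAFV600E tumours and at 796, 560 and 321 CPM in the others (log2 fold change 2.35, SE 0.34, edgeR adjusted p = 0.0238). Ccnd2, or cyclin D2, was at 48.4, 27.9 and 57.2 CPM against 251, 126 and 152 CPM (log2 fold change 1.99, SE 0.35, edgeR adjusted p = 0.0322). In both genes every SOX2-expressing tumour was above every other tumour. Other MYC network genes had a median of 0.07 (0.42 without scaling factors), with 5 of 13 below 0, and DESeq2 called 3 higher and 0 lower. Mxd4, a further MAX-binding repressor, rose from 29.1, 23.7 and 40.7 CPM to 59.3, 69.4 and 68.7 CPM (log2 fold change 1.08, SE 0.21, edgeR adjusted p = 0.0411). Mlxipl, a glucose-responsive factor, was also called higher (edgeR adjusted p = 0.0475), but from at most 0.0682 CPM to between 0.325 and 0.875 CPM, and its first group lay below the level of 3 counts. None of the 7 edgeR calls in these lists held whichever tumour was left out: leaving out the first female Ivl:BRAFV600E tumour, the second, or the second male Ivl:BRAFV600E-SOX2LSL tumour ended each of the 7 calls, as did sex as a covariate. Without the first male Ivl:BRAFV600E-SOX2LSL tumour all but Mlxipl kept their call. Over the 6 such fits Odc1 and Mxd4 kept theirs in 2, Mlxipl in 0 and each of the others in 1, while the directions stayed the same in the 17 alternatives, of which Mlxipl was in 16, as filterByExpr removed it.

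Cell cycle genes differed in direction from the members. Their median was 0.21, and 26 of 30 were above 0 (52.8% of all genes tested and 47.6% of those with at least 10 CPM). In the higher direction 11 had no overlap (36.7%, against 18.2% of all genes and 21.8% of those with at least 10 CPM). In the lower direction 0 had none. None passed in the edgeR test. At an unadjusted p below 0.05, 3 of 30 were higher, against 14.5% of all genes, and DESeq2 called 2 of 30 higher, against 10.5%. Over the 18 settings the median of the cell cycle genes stayed between 0.11 and 0.55, and that of the members between -0.48 and -0.03. Relative to the median of all genes, the cell cycle genes lay between 0.06 and 0.26 and the members between -0.52 and -0.35. The cell cycle genes were nearest to all genes without the male Ivl:BRAFV600E tumour, where 20 of 30 were above 0. The difference between both lists was not tested.

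**Figure D5:**
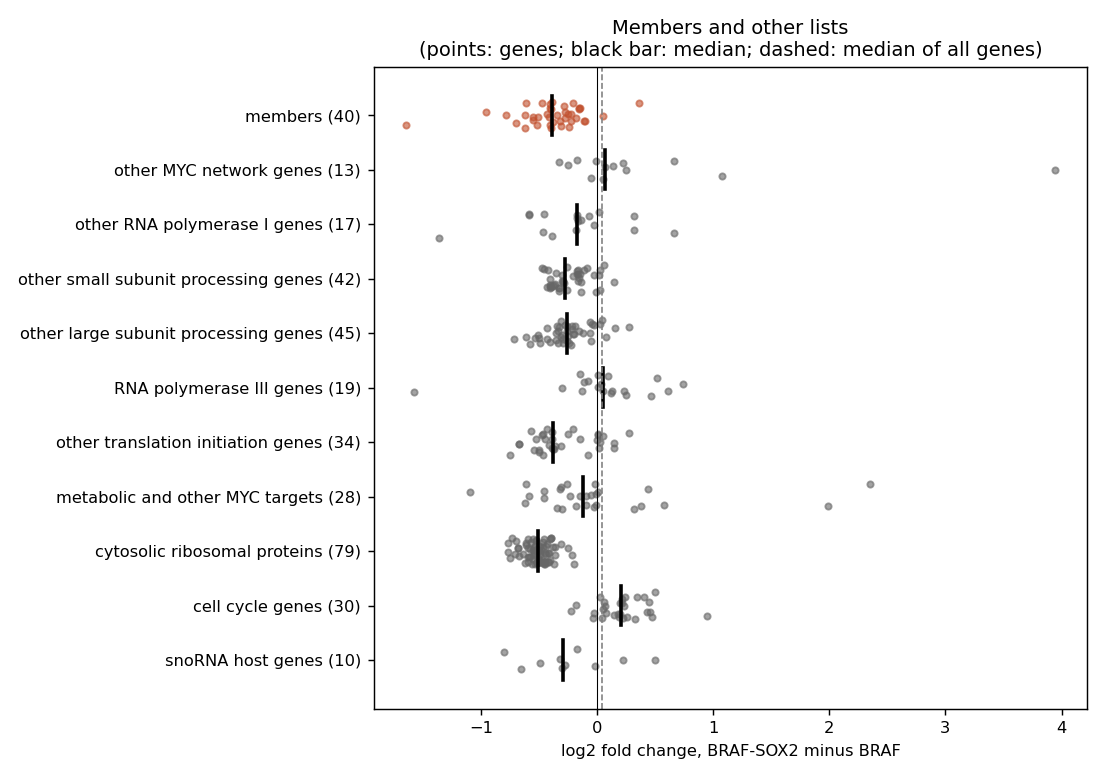
Log2 fold change (Ivl:BRAFV600E-SOX2LSL minus Ivl:BRAFV600E) of the 40 members and of the tested genes of 10 further lists, 1 point per gene, with the number of genes in brackets. Black bars are medians, from -0.51 for cytosolic ribosomal proteins to 0.21 for cell cycle genes, and the dashed line is the median of all genes tested at 0.04.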

How the data were processed

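Bulk RNA of tumours was depleted of ribosomal RNA and sequenced with paired ends. The authors checked reads with FastQC 0.11.8, trimmed them with TrimGalore, used HISAT2 2.1.0 for alignment to GRCm38 and counted them per gene with featureCounts (Subread 1.6.3). They deposited raw counts per gene, without normalisation or pooling; the treatment of multimapping reads and of strand is not given in the sources used here. Of 7 columns, 6 matched a mouse with a genotype in the study's records, and 1 column was not used: its name starts as those of the SOX2-expressing mice do, whereas the labels, with 4 Ivl:BRAFV600E and 3 Ivl:BRAFV600E-SOX2LSL samples, would make it an Ivl:BRAFV600E tumour, so its group is uncertain.

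Genes that reached 5 reads in 1 or more tumours were tested with the quasi-likelihood test of edgeR 4.0.16 (R 4.3.3) after TMM scaling, with Benjamini-Hochberg adjustment over 24433 genes at 0.05. The standard error was taken from the log2 fold change and its test statistic, and log2 CPM used a prior count of 2. Depth was 23565432 to 31152826 counts, and 3 counts corresponded to 0.0839 to 0.143 CPM. Positions came from GENCODE M21 and sequences from RefSeq. Scripts were tested on simulated data.

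The members and lists were chosen with earlier results of these data known. Full statistics are given for the 6 MYC network genes, called members and the 10 others with the smallest p, and from each list for at most 3 called genes with the smallest p; other genes were named after their values were seen. Alternatives were DESeq2 1.42.0, limma 3.58.1 (voom), other scaling, other filters, sex as a covariate, removal of Gm26917 or of skeletal muscle markers, and each tumour left out in turn. The limma voom fit gave each tumour its own quality weight. No scaling factors and removal of keratin genes were added after the data were seen.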

Additional observations from a re-analysis of the deposited data

How the results depend on the processing

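The number of members called lower was 2 with edgeR, 12 with DESeq2, 5 with limma voom, 4 with no filter on low counts, 4 with filterByExpr, 1 with sex as a covariate and 1 with no scaling factors; it lay between 0 and 3 when a tumour was left out. The number of genes called among all tested was 954 with edgeR, 3653 with DESeq2, 2142 with limma voom, 1759 with no filter and 1296 with filterByExpr. With sex as a covariate it was 228 and with no scaling factors 1974, and it lay between 22 and 1575 when a tumour was left out. It was lowest without the first female Ivl:BRAFV600E tumour (22) and without the second (50), where 0 members were called. The median log2 fold change of the members moved to -0.032 with no scaling factors. With no scaling factors 17 members turned from below to above 0: Myc (0.0098), Mxd1 (0.24), Polr1a, Polr1b, Ubtf, Npm1, Nolc1, Fbl, Nop56, Gar1, Rrp9, Tsr1, Bop1, Nop2, Ppan, Rrs1 and Eif4ebp1. Utp20 turned below 0 with upper-quartile scaling (-0.049) and without the second female or the male Ivl:BRAFV600E tumour or the female Ivl:BRAFV600E-SOX2LSL tumour, and Eif4ebp1 above 0 without the second female Ivl:BRAFV600E tumour. The sign of Mycn turned without the second female Ivl:BRAFV600E tumour (-0.01) and without the second male Ivl:BRAFV600E-SOX2LSL tumour (-0.32); over the tumours left out Mycn ranged from -0.32 to 1.19. The cause was not tested. Upper-quartile scaling, DESeq2 size factors and removal of Gm26917, of muscle markers or of keratin genes left 2 members called. No paired analysis was possible because the columns carry no replicate numbers, so the replicate block was not run. With 3 tumours a side, an exact two-sided permutation test could not give a p below 0.1.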
